A study of Homo sapiens with 6 samples.

Results

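The 38 genes described here encode the machinery of mitosis and of the spindle checkpoint. They were chosen by name, 38 of the 19970 protein-coding genes on chromosomes 1 to 22 and X, and were grouped by role. The choice was made with earlier results of these data known. The readout was ATAC-seq, which uses a transposase to mark open chromatin. The cells were Nthy-ORI, a line of immortalised human thyroid follicular epithelium of normal origin. All cells spent 24 h in phenol-red free medium with charcoal stripped serum. They were then given the active thyroid hormone triiodothyronine (T3) at 10 nM for 24 h, 10 nM T3 for 6 h, or the NaOH vehicle, which is labelled 6 h. Each group had 2 samples, and the authors deposited 1 peak list per group, made from both. The lists held 60661 peaks at T3 24 h, 12385 at T3 6 h and 7103 in vehicle. The model is 1 immortalised line, and no label tells if paired samples were separate cultures.

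Cells enter mitosis when CDK1, bound to cyclin B, becomes active. Kinetochores then attach chromosomes to the spindle, and the spindle checkpoint holds the anaphase-promoting complex (APC/C) back until every kinetochore is attached. The APC/C then marks securin and cyclin B for destruction, and separase opens the cohesin rings between sister chromatids. Many of these genes are transcribed mainly in G2 and M phase. Their promoters often carry a CHR (cell cycle genes homology region), which the MuvB complexes bind, and CCAAT boxes, which the factor NF-Y binds.

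Of the 38 mitosis genes, 36 carried a gene-end peak in the T3 24 h list, 8 in the T3 6 h list and 0 in the vehicle list. A peak counted when its position, the mean of the 2 replicate summits, lay within 1 kb of either boundary of the gene. Among all 19970 protein-coding genes the shares were 60.8% in the T3 24 h list, 10.8% in the T3 6 h list and 1.34% in the vehicle list, and among the mitosis genes 94.7%, 21.1% and 0%. A peak in the T3 24 h list with none in vehicle was found at 36 mitosis genes (all genes 59.6%), and the converse at 0 (0.225%). A peak at T3 6 h with none in vehicle was found at 8 (10.3%), and the converse at 0 (0.846%). A peak at T3 24 h with none at T3 6 h was found at 28 (50.5%), and the converse at 0 (0.551%). The 0 in vehicle stands beside a low background and is no result about these genes. Each listed peak has a signal and a summit in both replicate columns. Each group has only 1 list, and a missing peak has no value per sample, so no p-value is given.

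**Figure D1:**
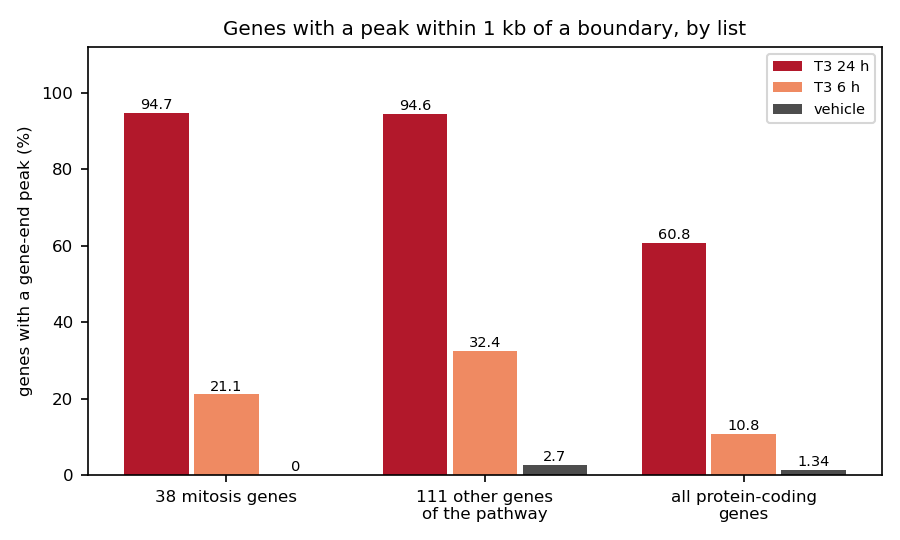
Share of genes (%) with a peak within 1 kb of a gene boundary, for the 38 mitosis genes, 111 other genes of the pathway and all protein-coding genes. Bars show the T3 24 h, T3 6 h and vehicle lists from left to right. The mitosis genes stood at 94.7%, 21.1% and 0%, and all genes at 60.8%, 10.8% and 1.34%.

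The lists differ in quality as well as in treatment. Replicate summits lay a median of 46 bp apart in the T3 24 h list, 222 bp in the T3 6 h list and 180 bp in the vehicle list, and the lists give no read depth. Hormone and time cannot be told apart at 24 h, because no vehicle sample of that time was analysed here. A gene without a peak is therefore not shown to be closed. The lists come from whole cultures, so a site open in more cells and a site more open in each cell cannot be told apart. Of 8 thyroid follicular markers 5 had a gene-end peak at T3 24 h, namely PAX8, NKX2-1, FOXE1, HHEX and TSHR, and TG and SLC5A5 were among those with none. Of 10 markers of blood, endothelial and C cells 3 had one, CD3E and CD14 among them.

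The mitosis genes ranked high within the T3 24 h list. The authors' signal adds up both replicate values, and since its normalisation is not stated it was ranked only within its own list. The strongest gene-end peak of each gene stood at a median percentile of 92.7 for the 36 mitosis genes and of 75.7 for the 12134 genes with one. Of the 36, 22 (61.1%) lay above percentile 90, against 23.8% of all genes with a peak. All 36 carried the highest IDR score of 1000, as did 84.6% of all genes with a peak. The IDR (irreproducible discovery rate) is low where a peak ranks high in both replicates, so this score is not separate from the signal rank. Their replicate summits lay 0 to 703 bp apart with a median of 22 bp, against 49 bp over all genes. Counted over peaks in place of genes, the 38 mitosis peaks had a median percentile of 92.7 and a median summit distance of 20 bp, against 72.2 and 48 bp for all 11536 gene-end peaks.

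The 8 genes seen at T3 6 h did not rank high in that list. Their median percentile by summed signal was 34.8, against 49.6 for the 2161 genes with a peak, and 0 of the 8 lay above percentile 90 (6.29% of all genes). UBE2C and KIF20A lay above the list median. By the first replicate column the median of the 8 peaks was 49.5, against 53.7 for all gene-end peaks, and by the second 36.5, against 43.5. At an IDR of at most 0.01 the 2 genes left had a median of 67.5. With replicate summits within 100 bp the median was 20.5, and within 250 bp it was 27.5. The replicate summits of the 8 genes lay 41 to 284 bp apart with a median of 153.5 bp, against 214 bp over all genes. All 8 had a T3 24 h peak too, which overlapped the 6 h peak by 64.0% to 100% of the shorter one. Over all genes, the 2051 with peaks in both lists made up 94.9% of the 6 h genes and 16.9% of the 24 h genes. For the mitosis genes the shares were 100% and 22.2%.

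**Figure D2:**
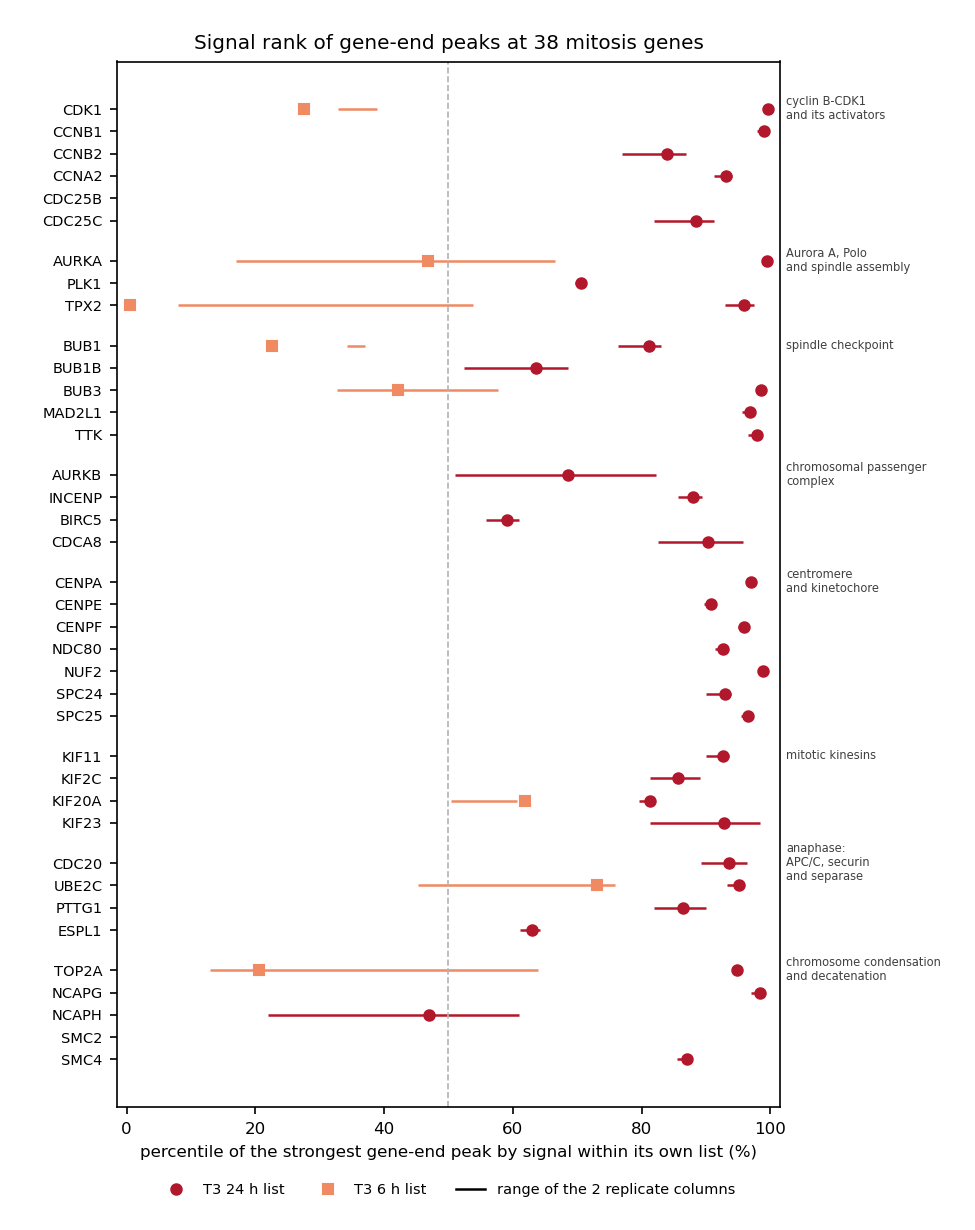
Percentile (%) of the strongest gene-end peak of each mitosis gene by summed signal within its own list, with genes grouped by role. Circles are the T3 24 h list, squares the T3 6 h list, and lines join the percentiles of the 2 replicate columns; a summed signal can rank outside that range. The dashed line marks the list median. At T3 24 h 35 of 36 genes lay above it, and at T3 6 h 2 of 8.

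CDK1, the kinase that drives mitosis, had the highest T3 24 h signal of the 38 genes. Its peak at chr10:60778215-60778778 (hg38) had signals of 16.3 and 23.3 in the 2 replicate columns, summed 39.6, percentile 99.6 of the T3 24 h list. Its T3 6 h peak lay within that region with signals of 4.18 and 5.24, summed 9.42, percentile 27.5. The replicate summits were 15 bp apart at T3 24 h and 41 bp apart at T3 6 h. CCNB1, cyclin B1, was next within this role at T3 24 h with 15.2 and 21.0, percentile 99.0. CCNB2, cyclin B2, had the lowest value of this role at T3 24 h, 8.72 and 12.7, percentile 84.0. CCNA2, cyclin A2, which acts in S phase and G2, stood at percentile 93.1 from a peak that also counts for BBS7. CDC25C, a phosphatase that activates CDK1, stood at percentile 88.5 from a peak that also counts for FAM53C, with replicate summits 548 bp apart. CDC25B, a related phosphatase, was without a gene-end peak in all 3 lists. Its nearest T3 24 h peak lay 5419.5 bp from the gene boundary, upstream of the start, with signals of 8.72 and 7.03. In the T3 6 h and vehicle lists the nearest lay 56706 and 40493.5 bp away.

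The promoters below belong to CDK1 and CCNB1, the strongest genes of this role, to CCNB2, with the most motif matches there, and to CDC25B, which lacked a gene-end peak. Each is the 250 bases before the annotated start in RefSeq (GRCh38.p14), 5′ to 3′ on the strand of the gene. Capitals mark CHR matches (TTTGAA or TTCGAA, either strand) and CCAAT boxes (CCAAT, either strand). All 4 genes lie on the plus strand, at chr10:60778081-60778330, chr5:69166900-69167149, chr15:59104896-59105145 and chr20:3786701-3786950.
CDK1: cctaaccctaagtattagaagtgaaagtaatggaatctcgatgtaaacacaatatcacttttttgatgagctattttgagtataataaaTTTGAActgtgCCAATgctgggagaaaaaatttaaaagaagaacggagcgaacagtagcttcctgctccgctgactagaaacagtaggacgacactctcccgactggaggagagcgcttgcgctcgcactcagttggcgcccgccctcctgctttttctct
CCNB1: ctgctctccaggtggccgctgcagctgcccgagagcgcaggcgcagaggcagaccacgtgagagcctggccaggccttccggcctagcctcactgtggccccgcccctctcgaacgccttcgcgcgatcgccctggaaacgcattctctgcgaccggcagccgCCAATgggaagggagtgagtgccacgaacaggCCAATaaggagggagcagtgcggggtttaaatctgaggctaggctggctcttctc
CCNB2: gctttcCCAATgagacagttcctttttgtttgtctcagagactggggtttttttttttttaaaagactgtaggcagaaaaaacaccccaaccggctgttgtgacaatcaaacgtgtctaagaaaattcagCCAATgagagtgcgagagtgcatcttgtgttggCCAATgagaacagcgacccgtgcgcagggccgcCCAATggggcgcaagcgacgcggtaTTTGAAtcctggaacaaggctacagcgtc
CDC25B: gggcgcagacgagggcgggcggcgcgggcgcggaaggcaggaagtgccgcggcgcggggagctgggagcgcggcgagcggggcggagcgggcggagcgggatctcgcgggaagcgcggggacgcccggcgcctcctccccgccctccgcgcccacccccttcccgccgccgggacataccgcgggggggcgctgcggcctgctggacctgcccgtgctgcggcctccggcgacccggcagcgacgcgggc
The T3 24 h peak covered 116 of the 250 bases in CDK1, 250 in CCNB1, 185 in CCNB2 and 0 in CDC25B. The marked CHR and CCAAT matches of CDK1, at -161 and -150, lay outside its peak, as did the CCAAT box of CCNB2 at -244. CCNB2 held 4 CCAAT boxes, of which 3 lay 33 bp apart, and a CHR 29 bases before the start. CCNB1 held 2 CCAAT boxes 32 bp apart and no CHR match. CDC25B held neither.

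Aurora A, Polo kinase and TPX2 build the spindle. AURKA, the centrosomal Aurora kinase, had T3 24 h signals of 16.8 and 21.6, percentile 99.4. Its T3 6 h signals were 3.79 and 6.26, percentile 46.9, and the replicates ranked it apart, at percentiles 16.9 and 66.5. Both peaks also count for CSTF1, the neighbouring gene. TPX2, which activates Aurora A on microtubules, had T3 24 h signals of 14.7 and 15.1, percentile 95.8, with both summits at the same base (0 bp apart). Its T3 6 h signals were 4.76 and 3.69, and by summed signal that peak was among the weakest of its list at percentile 0.541. The replicate columns ranked it apart, at percentiles 53.9 and 7.98. PLK1, the Polo kinase, was lowest of the role at T3 24 h with 7.80 and 8.88, percentile 70.5, and had no T3 6 h peak.

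All 5 spindle checkpoint genes had a T3 24 h peak and BUB1 and BUB3 also a T3 6 h peak. BUB3, which docks checkpoint proteins at kinetochores, led the role at T3 24 h with signals of 15.9 and 18.5, percentile 98.5. A second BUB3 peak at T3 24 h was among the weakest of the list, with signals of 3.87 and 3.63. BUB3 had T3 6 h signals of 4.94 and 4.92, percentile 42.1, with summits 131 bp apart. BUB1, a checkpoint kinase, had T3 24 h signals of 8.62 and 11.6, percentile 81.2, with summits 1 bp apart. Its T3 6 h signals were 4.27 and 5.02, percentile 22.6, with summits 176 bp apart. By summed signal BUB1 thus stood lower than BUB3 in both lists. By the second replicate column at T3 6 h BUB1 stood slightly higher, at percentile 34.2 against 32.7. TTK, the kinase that starts checkpoint signalling, and MAD2L1, the checkpoint protein MAD2, stood at percentiles 98.0 and 96.8 at T3 24 h. BUB1B, the checkpoint protein BUBR1, was lowest with 6.24 and 8.74, percentile 63.6.

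The 4 genes of the chromosomal passenger complex, which corrects wrong attachments, had the lowest median percentile of the 8 roles at T3 24 h, 78.3, and 0 had a T3 6 h peak. CDCA8, the subunit borealin, led with 13.6 and 11.4, percentile 90.4, from a peak that also counts for AIRIM. Its replicate summits lay 703 bp apart, the widest gap of the 36 genes, so its mean position falls between them. INCENP, the scaffold, stood at percentile 88.0. AURKB, the kinase of the complex, had 9.54 and 6.63, percentile 68.6, with replicate percentiles of 82.2 and 51.0. BIRC5, survivin, was lowest with 6.90 and 7.12, percentile 59.0.

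All 7 centromere and kinetochore genes lay above percentile 90 at T3 24 h and 0 had a T3 6 h peak. NUF2, a subunit of the NDC80 complex that binds microtubules, led with 16.6 and 19.1, percentile 98.9. The other subunits of that complex stood at percentiles 96.6 (SPC25), 92.9 (SPC24) and 92.7 (NDC80). CENPA, the histone variant that marks centromeres, stood at percentile 97.0. CENPF, a large protein of the outer kinetochore, stood at 95.9. CENPE, a kinetochore kinesin, was lowest with 11.6 and 13.7, percentile 90.7. The peaks of NDC80 and NUF2 also count for METTL4 and RGS5.

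The 4 mitotic kinesins ranged from percentile 81.3 to 92.8 at T3 24 h. KIF23, a motor of cytokinesis, was highest with 15.6 and 11.2, and its replicate percentiles were 98.4 and 81.3. KIF11, which pushes spindle poles apart, and KIF2C, which depolymerises microtubules, stood at 92.6 and 85.7. KIF20A, another motor of cytokinesis, was lowest at T3 24 h with 9.51 and 10.8, percentile 81.3, and was the kinesin with a T3 6 h peak. That peak had signals of 5.06 and 5.60 and percentile 62.0. Its summits lay 274 bp apart at T3 24 h and 284 bp apart at T3 6 h, and both peaks also count for BRD8.

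Of the anaphase genes UBE2C, the ubiquitin-conjugating enzyme of the APC/C, led at T3 24 h and was the one with a T3 6 h peak. It had 12.4 and 16.5 at T3 24 h, percentile 95.1, with summits 1 bp apart. Its T3 6 h signals were 4.53 and 6.76, percentile 73.1, the highest of the 8 genes there, with summits 204 bp apart. That T3 6 h peak also counts for DNTTIP1. CDC20, the APC/C activator that the checkpoint restrains, stood at percentile 93.5 at T3 24 h, and its peak was the widest of the 36 at 2101 bp. PTTG1, securin, stood at 86.4. ESPL1, separase, was lowest with 7.18 and 7.66, percentile 63.0.

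Of the genes for chromosome condensation and decatenation, NCAPG, a condensin subunit, led at T3 24 h with 14.3 and 19.8, percentile 98.4. The NCAPG peak also counts for DCAF16. TOP2A, the topoisomerase that untangles sister chromatids, had 12.9 and 15.7, percentile 94.8, with summits 5 bp apart. TOP2A was the one with a T3 6 h peak, with signals of 5.20 and 4.03, percentile 20.5, and summits 44 bp apart. Its replicate percentiles at T3 6 h were 63.9 and 12.9. SMC4, a condensin ATPase, had 2 peaks at T3 24 h, and both also count for IFT80. The stronger had signals of 10.7 and 12.3, percentile 87.1, and the weaker 6.87 and 7.08, percentile 58.7. NCAPH, another condensin subunit, had the lowest value of the 36 genes, 4.40 and 7.65, percentile 46.9. SMC2, the partner of SMC4, was without a gene-end peak in all 3 lists. RefSeq places its annotated start 6046 bp inside the gene boundary, and a T3 24 h peak with signals of 12.3 and 13.4, percentile 91.4, lay upstream at -233 bp from that start. SMC2 therefore lacked a peak by the boundary rule and had one by its annotated start.

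Promoters of 3 genes with peaks in both T3 lists, and of 2 with CHR and CCAAT matches and a T3 24 h peak only, are shown in the same way. BUB1 (chr2:110678064-110678313), TOP2A (chr17:40417897-40418146) and SPC25 (chr2:168890431-168890680) lie on the minus strand. KIF20A (chr5:138178862-138179111) and CDCA8 (chr1:37692266-37692515) lie on the plus strand.
BUB1: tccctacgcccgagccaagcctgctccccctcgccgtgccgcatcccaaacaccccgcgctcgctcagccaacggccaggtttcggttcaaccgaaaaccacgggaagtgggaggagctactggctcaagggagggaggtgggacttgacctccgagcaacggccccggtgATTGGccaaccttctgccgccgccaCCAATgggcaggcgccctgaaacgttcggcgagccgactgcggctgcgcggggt
KIF20A: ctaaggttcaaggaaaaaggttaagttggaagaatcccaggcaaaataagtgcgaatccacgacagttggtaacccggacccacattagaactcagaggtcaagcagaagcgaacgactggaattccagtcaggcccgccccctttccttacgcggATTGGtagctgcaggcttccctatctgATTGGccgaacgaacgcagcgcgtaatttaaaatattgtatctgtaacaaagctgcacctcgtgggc
TOP2A: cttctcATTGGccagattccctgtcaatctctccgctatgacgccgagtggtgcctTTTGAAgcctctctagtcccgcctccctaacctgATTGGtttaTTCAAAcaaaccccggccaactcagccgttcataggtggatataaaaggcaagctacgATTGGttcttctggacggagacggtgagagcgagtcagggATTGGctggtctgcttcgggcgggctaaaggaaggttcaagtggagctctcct
CDCA8: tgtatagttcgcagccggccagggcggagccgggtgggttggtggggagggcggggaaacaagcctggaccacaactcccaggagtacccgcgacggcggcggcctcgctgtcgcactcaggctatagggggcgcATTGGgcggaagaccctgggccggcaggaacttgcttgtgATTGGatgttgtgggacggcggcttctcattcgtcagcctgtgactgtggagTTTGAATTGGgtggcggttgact
SPC25: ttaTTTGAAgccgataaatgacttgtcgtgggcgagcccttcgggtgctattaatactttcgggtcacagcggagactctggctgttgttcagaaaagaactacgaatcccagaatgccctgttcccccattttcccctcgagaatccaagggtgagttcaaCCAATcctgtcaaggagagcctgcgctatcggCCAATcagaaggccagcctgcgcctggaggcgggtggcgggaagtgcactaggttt
The T3 24 h peak covered all 250 bases in BUB1, KIF20A, TOP2A and CDCA8 and 203 in SPC25. The marked CHR match of SPC25, at -247, lay outside its peak. In CDCA8 a CHR match and a CCAAT match overlap. BUB1 has a CHR match that begins 1 base after the first transcribed base, and SPC25 one that begins 3 bases before it and runs past the stretch shown, so neither is in capitals.

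The T3 24 h peaks sat close to annotated starts. RefSeq promoter entries matched 32 of the 38 genes; AURKA, TPX2, BUB3, TTK, BIRC5 and UBE2C were without one. Of the 32, 31 (96.9%) had a T3 24 h peak within 1 kb of the start, all but CDC25B, against 61.7% of the 15812 genes with an entry. In the T3 6 h list 4 of 32 (12.5%) did, near the 11.3% of all genes, and in vehicle 0, against 1.21%. AURKA, TPX2, BUB3 and UBE2C had T3 6 h gene-end peaks but no promoter entry, so they could not be counted here. The position nearest the start lay at a median of -89.5 bp for the mitosis genes, where negative means upstream, with quartiles of -125.25 and -25.5 bp. Over all 9763 genes with such a peak the median was -54.5 bp and the quartiles -144.5 and 61.25 bp. The position lay 0 to 200 bp upstream in 21 of the 31 mitosis genes (67.7%) and in 48.8% of all genes. Measured from the nearest boundary, the T3 24 h gene-end peaks of the 36 genes lay 3.5 to 480.5 bp away, well inside the limit. Of the genes without one, CDC25B had its nearest T3 24 h peak at 5419.5 bp and SMC2 at 5813 bp.

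**Figure D3:**
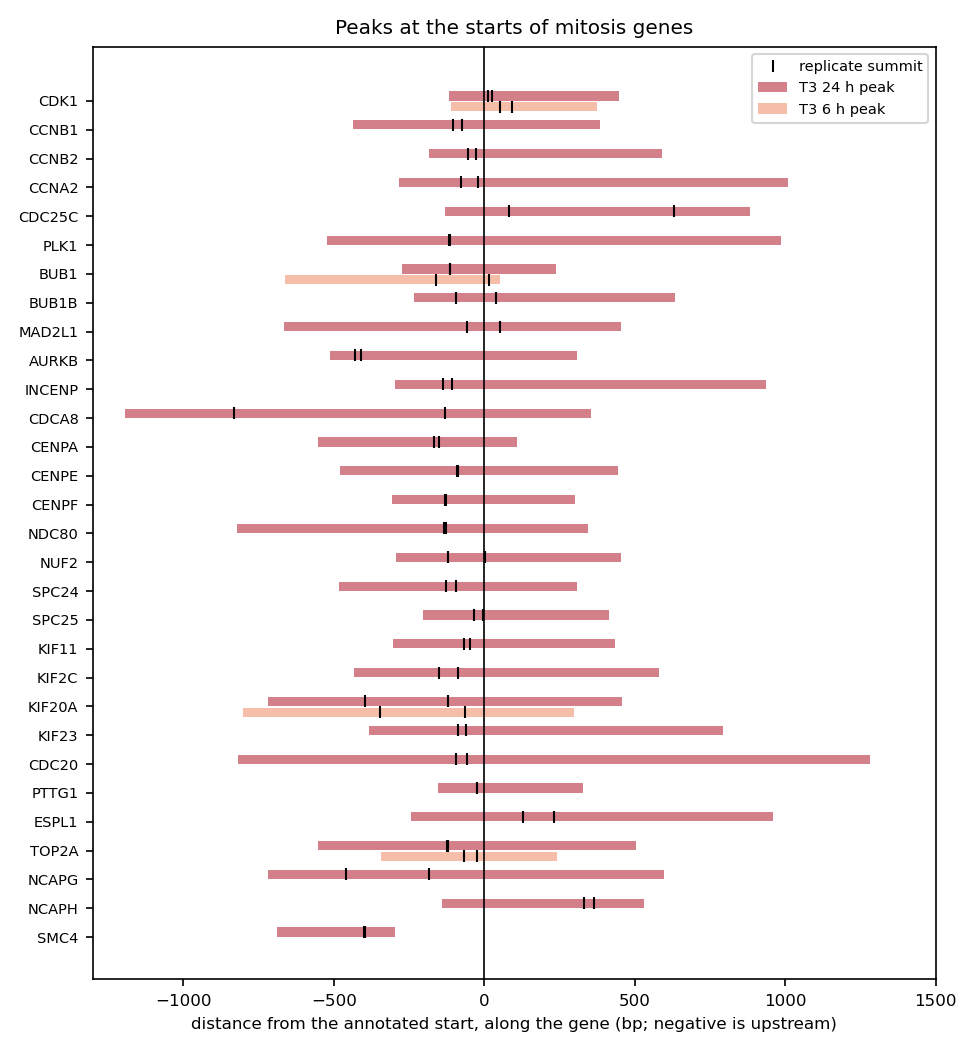
Strongest gene-end peaks of the 30 mitosis genes with a promoter entry and such a peak, as bars along the distance from the annotated start (bp, negative upstream). Darker bars are the T3 24 h list, lighter bars the T3 6 h list, and ticks the 2 replicate summits. Most T3 24 h summits lie just upstream of the start, while CDK1, CDC25C, ESPL1 and NCAPH have both theirs downstream and the stronger SMC4 peak ends before the start.

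CHR and CCAAT matches were frequent in these promoters. The windows searched ran from 250 bases before the start to 50 bases from it, on both strands, and were chosen with the peak results known. A CHR match was present in 21 of 32 mitosis windows (65.6%) and in 13.5% of all 15812 windows. A CCAAT box was present in 22 (68.8%), against 36.3%, and at least 2 boxes in 13 (40.6%), against 12.5%. Both motifs were present in 15 (46.9%), against 5.55%. The 25 CHR matches had a median position of -28 and the 45 CCAAT matches one of -79. A CHR match no more than 60 bases before the start or after it, a limit set after seeing these positions, was present in 17 (53.1%), against 3.95%. KIF2C, CDC25B, CENPE and CDC25C held neither motif in this window, and all of these but CDC25B had a T3 24 h peak. The CDC25C peak covered 179 of the 300 bases of its window. Its replicate summits lay 81 and 629 bp downstream of the annotated start, with a mean of 355 bp. Motifs outside the window were not searched. An E2F core (TTCCCGC or TTGGCGC) was present in 6 (18.8%), against 12.3%. AGGTCA, the core of many thyroid hormone receptor sites, was present in 3, AURKB, BUB1 and KIF20A (9.38%), against 11.7%. Its direct repeat with a spacer of 4 bases (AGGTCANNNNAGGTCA) was in 0 of 32 windows and in 1 of 15812. A match is a run of letters and not a measured binding site.

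Gene length and base composition were set beside the counts. The mitosis genes had a median length of 26635.5 bp, against 24190 bp for all genes. With all genes weighted by the 5 length classes of the mitosis genes, 62.4% had a gene-end peak at T3 24 h and 11.6% at T3 6 h, where the mitosis genes had 94.7% and 21.1%. Promoter windows had a median GC content of 61.2% in the 32 mitosis genes and 62.7% in all genes. Weighted by 5 GC classes, 64.6% of all genes had a gene-end peak at T3 24 h and 14.3% at T3 6 h. The 32 mitosis genes had 93.8% and 12.5%. Their 6 h share was near that background, but the 32 leave out AURKA, TPX2, BUB3 and UBE2C, which all had a T3 6 h peak. Without weighting, 11.8% of all genes with a promoter entry had a T3 6 h gene-end peak. A T3 24 h peak shared with the end of another gene was present at 9 of the 36 mitosis genes (25%) and at 26.7% of all genes with a peak.

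Inside the genes, more than 1 kb from either boundary, T3 24 h peaks were sparse. The T3 24 h list held 9 such peaks in 9 of the 38 mitosis genes (23.7%, against 42.4% of all genes). That made 8.78 per Mb, against 19.7 per Mb over all genes. The T3 6 h list held 2, in 5.26% of the mitosis genes against 13.2% of all genes, or 1.95 per Mb against 3.17. The vehicle list held 1, in 2.63% against 6.95%, or 0.976 per Mb against 1.42. Counts of 2 and 1 are too small to be a result about these genes. The 9 genes were AURKA, BUB1, CDC25B, CDC25C, ESPL1, INCENP, KIF2C, NCAPH and SMC2, and in SMC2 the peak was the one at its annotated start.

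Other genes of mitosis, in lists also chosen with earlier results of these data known, gave similar shares at T3 24 h. Of 111 further genes in 7 lists, 105 (94.6%) had a T3 24 h gene-end peak, 36 (32.4%) a T3 6 h peak and 3 (2.70%) a vehicle peak. Among all genes the shares were 60.8%, 10.8% and 1.34%, the background for each list below too. The T3 24 h median percentile was 86.2 for the further genes, 92.7 for the mitosis genes and 75.7 for all genes with a peak. By list it ran from 80.0 for APC/C genes to 91.9 for kinetochore and centromere genes. All 26 further kinetochore and centromere genes had a T3 24 h peak, and 10 a T3 6 h peak. Those with a T3 6 h peak included CENPC, CENPM, CENPO, CENPP, CENPQ, OIP5, DSN1, KNL1 and SKA2. Spindle, centrosome and cytokinesis genes had T3 24 h peaks in 21 of 22 cases and T3 6 h peaks in 8, at ECT2, KIF15, KIF22, KIFC1, NUSAP1, HMMR, NEK2 and BORA. OIP5 and NUSAP1 had identical signals and summit distances in both T3 lists, so 1 shared peak per list was counted for each gene. At T3 6 h its signals were 5.21 and 5.11 in the replicate columns. NEK2, a centrosomal kinase, had the highest T3 6 h percentile of the 111, 89.8, with signals of 5.21 and 8.11.

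Among regulators of mitotic transcription 15 of 16 had a T3 24 h peak and 6 a T3 6 h peak. Those at T3 6 h were the MuvB subunits LIN9, LIN52 and LIN54, RBL1, the pocket protein p107, TFDP1, an E2F partner, and NFYA, a subunit of NF-Y. Of 9 genes of mitotic entry 8 had a T3 24 h peak and 4 a T3 6 h peak, CDC25A, CKS2, GTSE1 and MASTL. Of 16 APC/C genes 15 had a T3 24 h peak and 4 a T3 6 h peak, ANAPC4, ANAPC13, ANAPC16 and FZR1. Of 12 condensin and cohesin genes 11 had a T3 24 h peak and 2 a T3 6 h peak, SMC1A and STAG1. Of 10 checkpoint genes 9 had a T3 24 h peak and 2 a T3 6 h peak, KNTC1 and HASPIN. ANAPC5, CCNB3, MAD2L2, NCAPD3, RACGAP1 and RBL2 had none at T3 24 h. The 3 genes with a vehicle peak were SKA3, ANLN and RBL1, with replicate summits 778, 528 and 521 bp apart.

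The counts moved with the length of the lists. With each list limited to its 7103 strongest peaks, 23 of the 38 mitosis genes had a T3 24 h peak (all genes 16.6%), 3 a T3 6 h peak (6.26%) and 0 a vehicle peak (1.34%). The T3 6 h count moved more, in proportion, than the T3 24 h count with the peak filters. With an IDR of at most 0.01 it was 2, KIF20A and UBE2C (3.59%), while the T3 24 h count remained 36 (55.1%). With replicate summits within 100 bp it was 3, CDK1, TPX2 and TOP2A (3.14%), beside 28 at T3 24 h (43.5%). No gene was in both of these sets of 6 h genes.

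**Figure D4:**
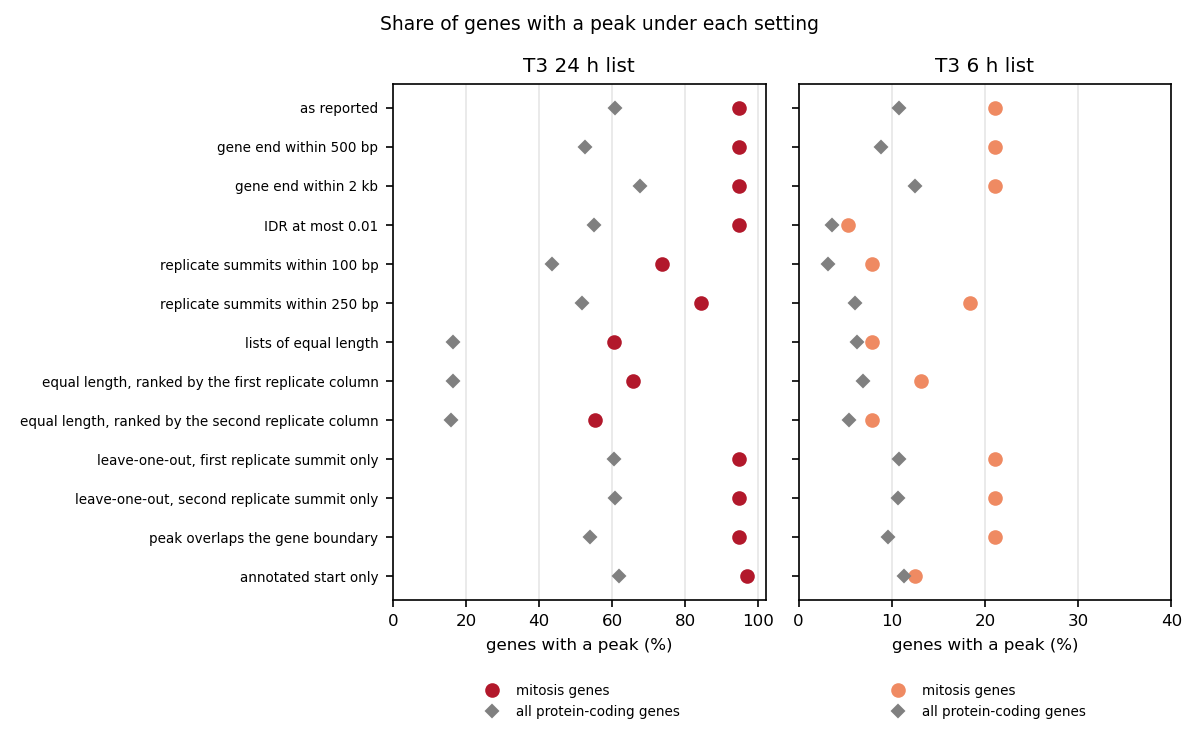
Share of genes (%) with a peak under each setting, in the T3 24 h list on the left and the T3 6 h list on the right, on axes of different range. Circles are the mitosis genes and diamonds all protein-coding genes. In the T3 24 h list the mitosis genes number 23 of 38 in lists of equal length, where all genes stand at 16.6%. At T3 6 h they run from 2 to 8 of 38, with 4 of 32 for annotated starts.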

How the data were processed

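ATAC-seq peaks of 6 samples were used, as 3 lists of 2 samples each. Per the submitters' processing notes, Bowtie2, MACS2, Trim Galore, CASAVA 1.7, DiffBind and the build hg38 were used, in no stated order. The 20-column layout is that of IDR output. The deposited signal is the sum of 2 replicate signals, of unstated normalisation. The score deposited by the authors is a scaled IDR between 540 and 1000, and the deposited −log10 of the IDR puts every peak at an IDR of at most 0.05. Nothing is stated on Tn5 shifting, duplicate removal or blacklists. Replicate columns carry no sample name. Read depth is unknown.

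RefSeq for GRCh38.p14 gave gene boundaries, and starts and promoter sequences came from its promoter table. Python 3.11.15, numpy 2.4.6 and pandas 2.3.3 were used. The gene-end counts were checked with bedtools 2.31.1, with 0 genes differing, and tested on simulated data. The members and lists were chosen with earlier results of these data known. Values are given for genes with a T3 6 h or vehicle peak, those with none, and the highest and lowest of each role at T3 24 h. The promoters shown were chosen after their values were seen. Alternatives varied the distance, the IDR, the summit distance, the list length, the replicate column and the boundary.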

Additional observations from a re-analysis of the deposited data

How the results depend on the processing

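No paired analysis was possible because the results are counts and ranks from 1 joint list per group. Each peak has 2 replicate signals, but the columns name no sample, their normalisation is not stated, and a region without a peak has no value, so no fit with the replicate number as a block was made. The unequal length and replicate agreement of the 3 lists limit every count. Of 138 values under alternative settings 106 stayed within 1.5 times of the reported count or distance, or within the spread of the replicate columns for percentiles. These include vehicle counts of 0 that stricter filters could not raise. They also include counts with none in vehicle, which repeat the T3 counts, so the total is no measure of stability. The members with a T3 24 h peak, and likewise those with none in vehicle, numbered 23 in lists of equal length and 21 when ranked by the second replicate column, where the share of all genes with a T3 24 h peak was 16.6% and 16% in place of 60.8%. Members with a T3 6 h peak, and likewise those with none in vehicle, numbered 2 at an IDR of at most 0.01, 3 with replicate summits within 100 bp, 3 in lists of equal length, 5 and 3 when ranked by the first and the second replicate column, and 4 at annotated starts only, where 32 genes could be counted. The share of all genes with a T3 6 h peak, 10.8% as reported, was 3.59%, 3.14%, 6.26%, 6.94%, 5.45% and 11.3% under these settings in the same order. Starts with a peak numbered 19 at T3 24 h in lists of equal length. At T3 6 h they numbered 1 at an IDR of at most 0.01, 2 with summits within 100 bp and 1 in lists of equal length. Other pathway genes with a peak numbered 49 of 111 at T3 24 h in lists of equal length, beside the 16.6% of all genes. At T3 6 h they numbered 8 at an IDR of at most 0.01, 8 and 18 with summits within 100 and 250 bp, and 17 in lists of equal length. In vehicle they numbered 0 at the stricter IDR and under both summit limits. The median percentile of member peaks at T3 24 h was 90.5 to 91.9 by 1 replicate column alone. At T3 6 h it was 36.5 to 49.5 by 1 column, 20.5 and 27.5 with summits within 100 and 250 bp, and 67.5 at an IDR of at most 0.01. The median summit distance at T3 6 h was 244 bp at that IDR and 44 bp within the limit of 100 bp. Using 1 replicate summit alone as the position left 36 members at T3 24 h, 8 at T3 6 h and 0 in vehicle. The IDR, summit and length limits keep fewer peaks, annotated starts cover fewer genes, and the single replicate columns rank the same peaks by another value. The cause of these changes was not tested further.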

Other observations

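Across all promoters with a RefSeq entry, the motifs of the mitosis genes went with different shares of T3 24 h peaks. Of the 2128 windows with a CHR match 48.4% had a T3 24 h peak within 1 kb of the start, against 61.7% of all 15812 windows. Of the 5741 windows with a CCAAT box 63.9% had one, and of the 1946 with an E2F core 80.0%. At T3 6 h the shares were 10.7% with a CHR match, 13.7% with a CCAAT box and 15.1% with an E2F core, against 11.3% of all windows. The CHR letters are rich in A and T, and peak shares differed by GC content. At T3 24 h they ran from 30.1% in the class of lowest GC to 79.7% in the fourth of the 5 classes. These GC shares count a peak within 1 kb of either gene boundary (63.4% of all genes with an entry), while the motif shares count the annotated start. How far base composition sets the motif shares was not tested.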
